A study of Mus musculus with 8 samples.

Results

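Neat1 and Malat1, neighbouring long noncoding RNA genes on mouse chromosome 19, lay in the densest run of WFS1 peaks found in proliferating C2C12 myoblasts. Peaks were assigned to the locus when they overlapped either gene or lay within 100 kb of either, which selected 51 of 22292 peaks. These 51 were chosen by their position, and the locus itself was selected on the number of peaks already seen there, so its peak counts are a description and carry no test. Neat1 (ENSMUSG00000092274) occupies chr19:5824708-5845478 and Malat1 (ENSMUSG00000092341) chr19:5795690-5802672 of GRCm38, both on the minus strand, with Malat1 downstream of the Neat1 3′ end.

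WFS1 is a membrane protein of the endoplasmic reticulum and the nuclear envelope, and its chromatin immunoprecipitation (ChIP-seq) in this study asked which genomic regions it associates with. The cells were wildtype, proliferating C2C12, a mouse myoblast line, crosslinked with DSG and formaldehyde and precipitated with a WFS1 antibody. After a single precipitation from chromatin sheared for 30 sonication cycles, 1 portion was sequenced as it was and the other after 6 more cycles, 36 in total, so both libraries share 1 immunoprecipitation and each condition had 1 library. Of the 8 libraries in the series, peak lists of these 2 were analysed. The input libraries, and those of WFS1 knockout cells that express WFS1-FlagTag, were not used here, and the input signal at Neat1 and Malat1 was not examined. Each list gave only the chromosome, start and end of every peak, with no height or score, and the read depth is unknown. Peaks of both lists that overlapped or touched were joined into what is called a combined peak.

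Neat1 RNA is the scaffold of paraspeckles, nuclear bodies built from RNA-binding proteins. It is made as a short and a long form from the same start, and the long form is needed for the bodies to assemble. Malat1 RNA is among the most abundant nuclear RNAs and gathers in nuclear speckles, which hold splicing factors. The 3′ end of Malat1 is made by RNase P, which cuts off a small tRNA-like RNA, and not by the usual polyadenylation. Both genes are strongly transcribed in many tissues, including muscle.

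The middle 200 bp of 5 peaks are printed 5′ to 3′ on the strand of both genes, since the description turns on them. They are the peak over the Neat1 start, the 2 widest peaks in Neat1, the widest peak in Malat1 and the peak nearest to the Malat1 start. Capitals mark words searched on both strands, which were TGACTCA (bound by AP-1), CAGCTG (an E-box bound by MyoD), TGTGGT or TGCGGT (RUNX), GGAATG (TEAD) and GGGCGG (SP/KLF), read as their reverse complement where they lay on the other strand.
Neat1 start, chr19:5845266-5845465: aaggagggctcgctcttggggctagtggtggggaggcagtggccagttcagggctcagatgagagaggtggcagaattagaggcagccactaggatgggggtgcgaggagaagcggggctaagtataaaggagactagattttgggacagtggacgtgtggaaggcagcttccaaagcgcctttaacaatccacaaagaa
Neat1 widest, chr19:5843020-5843219: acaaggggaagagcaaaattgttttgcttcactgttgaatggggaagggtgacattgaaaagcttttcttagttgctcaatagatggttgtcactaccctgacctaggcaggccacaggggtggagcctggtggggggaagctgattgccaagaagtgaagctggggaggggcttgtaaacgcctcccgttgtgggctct
Neat1 second widest, chr19:5839668-5839867: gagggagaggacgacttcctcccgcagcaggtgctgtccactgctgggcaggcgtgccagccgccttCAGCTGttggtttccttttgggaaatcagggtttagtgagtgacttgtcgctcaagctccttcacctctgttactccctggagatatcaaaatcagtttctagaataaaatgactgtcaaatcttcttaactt
Malat1 widest, chr19:5800369-5800568: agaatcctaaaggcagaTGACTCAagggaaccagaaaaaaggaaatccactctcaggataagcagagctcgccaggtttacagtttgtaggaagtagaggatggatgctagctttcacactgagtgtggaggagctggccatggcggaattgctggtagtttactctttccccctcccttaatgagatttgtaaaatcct
Malat1 upstream, chr19:5803144-5803343: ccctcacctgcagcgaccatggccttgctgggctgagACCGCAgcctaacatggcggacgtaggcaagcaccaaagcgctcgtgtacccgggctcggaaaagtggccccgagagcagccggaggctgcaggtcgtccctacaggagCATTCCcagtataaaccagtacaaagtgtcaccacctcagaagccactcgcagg
The stretch labelled Neat1 start lies just downstream of the annotated start and does not contain it. It and the middle of the widest Neat1 peak held none of the words, but both peaks held some outside these 200 bp. The peak over the start had GGGCGG at -139, -248 and 534 bp from the start (negative upstream) and CAGCTG at -304 bp. The GC content of the printed stretches was 55.0% for the peak over the Neat1 start, 52.0% and 49.5% for the wide peaks, 46% for the Malat1 peak and 61.5% for the peak upstream of Malat1.

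Neat1 was overlapped by 13 peaks after 30 cycles and by 15 after 36 cycles. These joined to 16 combined peaks, of which 8 held peaks of both lists, 5 came from the 30-cycle list only and 3 from the 36-cycle list only. Peaks covered 56.1% of the 20771 bp of Neat1 after 30 cycles and 43.8% after 36 cycles. Together the lists covered 71.2%. The bases under both lists made up 40.2% of those under either in Neat1 and 30.7% over the genome. These shares cannot be compared directly, because lists that cover much of a gene can share many bases by placement alone. Of the 30-cycle bases in Neat1, 51.1% were also under the 36-cycle list, which covered 43.8% of the gene. Of the 36-cycle bases, 65.4% were under the 30-cycle list, which covered 56.1%. Over the genome, coverage was 0.317% after 30 cycles and 0.193% after 36 cycles.

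The widest peaks lay in the first part of Neat1. A combined peak of 888 bp, chr19:5844922-5845809, spanned the annotated start from 331 bp upstream to 556 bp downstream, and the start lay under a peak in each list. The next, chr19:5841478-5844762, was 3285 bp wide. Only 5 of all 22292 combined peaks were as wide or wider, itself included. It came from 1 peak of 3067 bp after 30 cycles and 3 peaks of 910, 299 and 1522 bp after 36 cycles. Its neighbour, chr19:5838213-5841323, was 3111 bp wide, and 8 of all peaks were as wide or wider. This neighbour held 1 peak in each list, 2715 bp wide after 30 cycles and 2589 bp after 36 cycles.

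The span of the short Neat1 transcript (chr19:5842307-5845476 in the annotation) was covered to 95% by combined peaks, to 87.9% after 30 cycles and to 73.8% after 36 cycles. The rest of the long transcript was covered to 66.9%, 50.4% and 38.4%. Coverage was therefore higher over the shared first part of the RNA in each list. When Neat1 was divided into 20 equal bins, the 6 bins from 5% to 35% of its length were each covered to at least 85.3%. No base was covered between 80% and 85% of the length, and 19.2% between 75% and 80%. Towards the 3′ end coverage was higher again, at 76.0% and 81.2% in the last 2 bins.

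The lists did not cover the same bases throughout. Between 35% and 40% of the length the 36-cycle list covered 75% and the 30-cycle list none, and between 40% and 50% only the 30-cycle list had peaks, with 71.5% and 49.1% of the 2 bins. In the last bin the 30-cycle list covered 81.2% and the 36-cycle list 18.8%. The gaps between neighbouring peaks were short. When peaks up to 500 bp apart were also joined, 3 stretches over Neat1 were left, and the stretch that begins 331 bp upstream of the start and ends 12126 bp downstream of it was 12458 bp long with 84.6% of its bases under peaks. It was the longest of 19890 such stretches in the genome, and 5 were as long as or longer than the stretch of 5082 bp over the Neat1 3′ end, itself included.

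**Figure D1:**
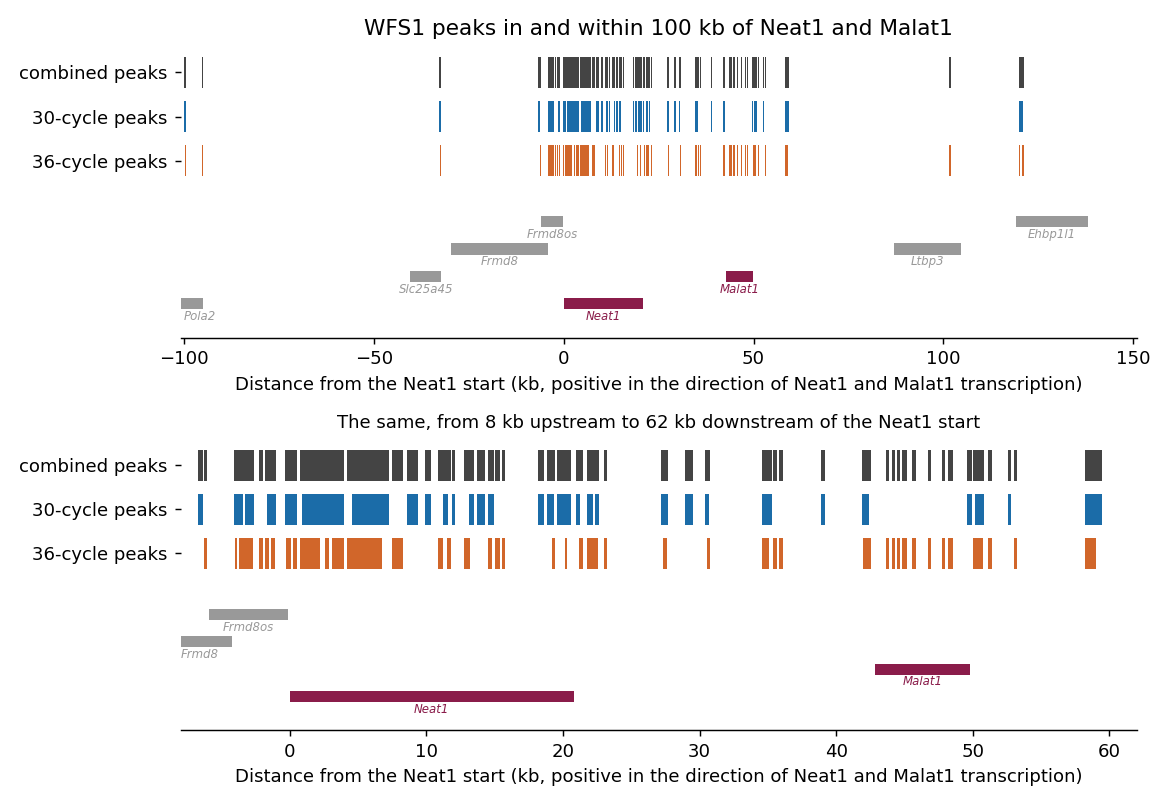
WFS1 peaks by distance from the Neat1 start in kb, positive in the direction of transcription, with boxes for combined, 30-cycle and 36-cycle peaks and bars for protein-coding and long noncoding genes with a combined peak (members dark red), the whole window above and its densest part below. Of the 51 combined peaks, 46 lie in or within 10 kb of the stretch from Malat1 to Neat1, and Malat1 carries 8 peaks in the 36-cycle row and 1 in the 30-cycle row.

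Malat1 was overlapped by 1 peak after 30 cycles and by 8 after 36 cycles, and no combined peak in it held peaks of both lists. The 30-cycle peak, chr19:5795555-5795912, was 358 bp wide and lay over the annotated 3′ end. The 36-cycle peaks were between 201 and 381 bp wide, with the first at 865 to 1079 bp and the last at 5393 to 5724 bp from the start of this gene of 6983 bp. Peaks covered 3.19% of Malat1 after 30 cycles, 30.2% after 36 cycles and 33.4% together. The lists thus shared no base of this gene.

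The first 10% of Malat1 held no peak in either list, and a short transcript annotated at its 5′ end, chr19:5801916-5802671, was not covered at all. The nearest peak to the start, chr19:5802904-5803583, ended 232 bp upstream of it and was found in both lists. After 30 cycles this peak was 496 bp wide and 416 bp from the start, and after 36 cycles 618 bp wide and 232 bp from it. It had an observed to expected CpG ratio of 0.79, the highest of the 51 peaks, against 0.30 over Malat1 and 0.28 over Neat1 as a whole.

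The RefSeq promoter of Malat1, from 250 bases before to 50 after the start on GRCm38.p6, is shown because the nearest peak stops inside it and leaves the start itself free. Only 19 of its 300 bases, at its far end, lay under a combined peak. It held 1 word of those searched, the CAGCTG in capitals, which begins at base 292.
Malat1 promoter, chr19:5802623-5802922: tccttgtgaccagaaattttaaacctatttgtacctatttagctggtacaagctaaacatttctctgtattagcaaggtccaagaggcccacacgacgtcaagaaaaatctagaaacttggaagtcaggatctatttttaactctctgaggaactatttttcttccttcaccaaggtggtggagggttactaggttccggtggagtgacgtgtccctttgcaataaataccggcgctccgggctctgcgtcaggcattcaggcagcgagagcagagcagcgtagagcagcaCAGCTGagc
The same word was found in 16.3% of 32851 RefSeq promoters of this length.

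Per 10 kb of gene, Malat1 had 1.43 peaks after 30 cycles and Neat1 6.26, whereas after 36 cycles Malat1 had 11.5 and Neat1 7.22. By the share of bases covered Neat1 was above Malat1 in each list. The order of the genes therefore depended on the measure after 36 cycles, when Malat1 had more peaks per 10 kb and Neat1 more peaks in all and more of its bases covered. With 1 library per condition, no spread between replicates can be set beside these values.

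**Figure D2:**
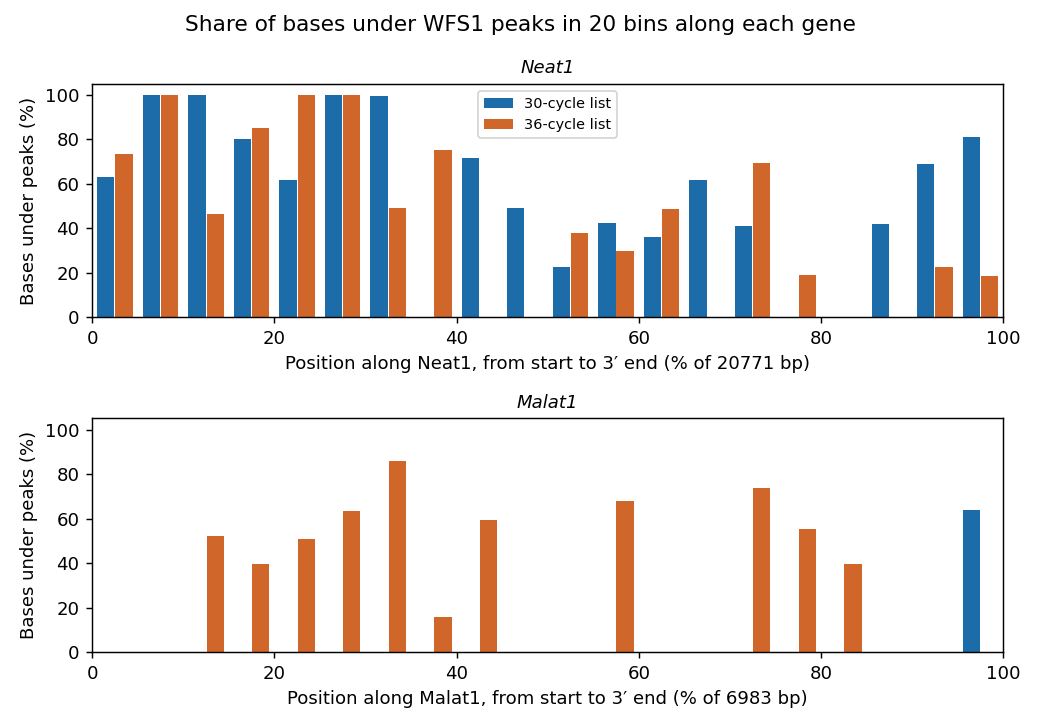
Percent of bases under WFS1 peaks in 20 equal bins from the start to the 3′ end of Neat1 (top) and Malat1 (bottom), with a bar for each list. In Neat1 both lists reach 100% between 5% and 10% of the length, and in Malat1 the 30-cycle list appears only in the last bin, at 63.9%.

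The peaks in Malat1 were narrower than most. Their median width was 258 bp, against 691 bp for the 16 peaks of Neat1, 438 bp for the 51 peaks of the locus and 376 bp for all combined peaks. In Malat1 1 of 9 peaks, and in Neat1 14 of 16, were at least as wide as the median of all. The widest peaks of the locus outside the genes were 1430 bp (2630 to 4059 bp upstream of the Neat1 start), 1289 bp (in Ehbp1l1) and 1244 bp (beyond the Malat1 3′ end), all in both lists.

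**Figure D3:**
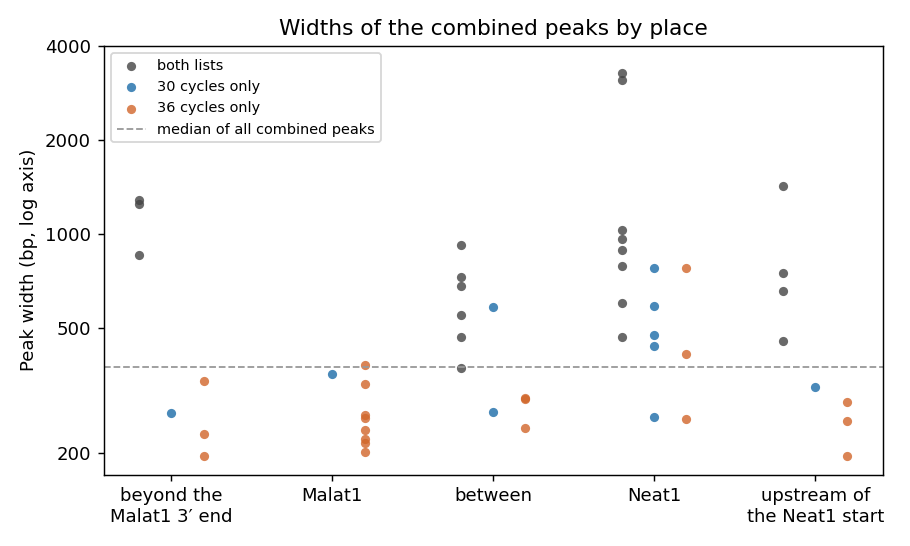
Width in bp (log axis) of each of the 51 combined peaks of the locus by place, with grey points for peaks of both lists, blue for 30 cycles only and orange for 36 cycles only, and the dashed line at the median of all combined peaks, 376 bp. Peaks over Malat1 lie at or below 381 bp, and the 2 widest, 3111 and 3285 bp, lie in Neat1.

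Between the genes, a stretch of 22.035 kb held 11 combined peaks, 9 from each list and 6 found in both, which covered 24.5% of it. The 5 kb beyond the Malat1 3′ end held 5 combined peaks over 33.7% of its bases, and the 10 kb upstream of the Neat1 start held 6 over 32.9%. Farther out the peaks became sparse. From 10 to 100 kb upstream of Neat1 there were 3 combined peaks, covering 1.43%, and 46 of the 51 lay in or within 10 kb of the stretch from Malat1 to Neat1. On the Malat1 side the farthest peak inside the limit lay 70.1 kb from the gene and the first outside it 185 kb away. On the Neat1 side these distances were 99.5 kb and 108 kb.

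The whole window, chr19:5695690-5945478, held 33 peaks of the 30-cycle list and 48 of the 36-cycle list. This order was the reverse of the whole lists, which hold 18283 and 12674 peaks. Of the 51 combined peaks 21 (41.2%, 95% Wilson interval 28.8 to 54.8) were in both lists, 10 in the 30-cycle list only and 20 in the 36-cycle list only. Over all combined peaks 35.4% were in both, 45.5% in the 30-cycle list only and 19.1% in the 36-cycle list only. The window had 204 combined peaks per Mb, 16.9 times the density of chromosome 19 and 25 times that of the genome. It made up 0.407% of chromosome 19 and held 6.85% of its 744 peaks.

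Density was also counted around every peak of the genome. The combined peak at chr19:5829702-5829957, inside Neat1, had 47 peaks centred within 50 kb of its own centre, itself included, and 9 peaks of the locus shared this value. No peak elsewhere exceeded 25, the value at chr15:77840340-77840620, followed by 23 at chr11:86602008-86602439 and at chr15:85653437-85654882. The median over all peaks was 3.

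Against the other annotated genes, Neat1 stood first by the share of its bases under peaks, in the combined set and in each list, among 24404 genes of at least 5 kb (0.0041% of them, itself alone, reached its share). After it came 5031415H12Rik with 47.0%, Bloc1s1 with 46.7% and Frmd8os, its own antisense neighbour, with 45.5%. Malat1 was at position 12 (0.0492% of genes reached its share), at position 6 after 36 cycles and at 1192 after 30 cycles. Of 55450 genes of any length and kind, 13.1% had a combined peak overlapping them, and of lincRNA genes 12.9%. At least as many peaks as the 16 of Neat1 were found in 29 genes (0.0523%), and at least as many as the 9 of Malat1 in 178 (0.321%).

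**Figure D4:**
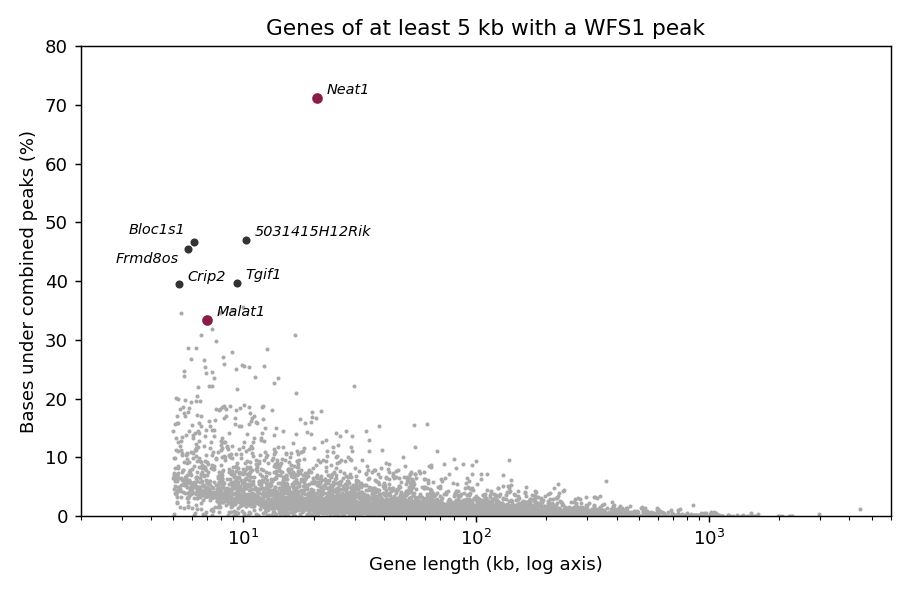
Percent of bases under combined peaks against gene length in kb (log axis) for every gene of at least 5 kb with a peak, each a point. Neat1, at 71.2%, stands above 5031415H12Rik, the next gene, at 47.0%, and Malat1 is at 33.4%.

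Counts of peaks favour long genes, and the noncoding genes with the most peaks were longer than Neat1. They were Gm26561 (20 peaks in 515 kb), Lncppara (20 in 53.9 kb) and Gm14005 (19 in 324 kb), and peaks covered 1.54%, 15.5% and 3.35% of them. Neat1 was at position 6 of 19482 noncoding genes by this count and had its peaks in 20.8 kb. In or within 100 kb of Neat1 lay 51 combined peaks and of Malat1 49. A value of at least 51 was reached by 5 genes (0.00902%), which were Neat1, its neighbours Frmd8, Slc25a45 and Tigd3, and Gm20388, an annotated gene of 4435 kb on chromosome 8.

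The excess of 36-cycle over 30-cycle peaks in Malat1, 7, was reached by no other gene of 55450 (0.0018%, itself alone). The next were Itgb3 (integrin beta 3) with 5 and 11 peaks and Lmna, which encodes lamin A/C of the nuclear lamina, with 6 and 12. In Neat1 the difference was 2. The libraries differ in shearing and may differ in depth, which cannot be told apart here.

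**Figure D5:**
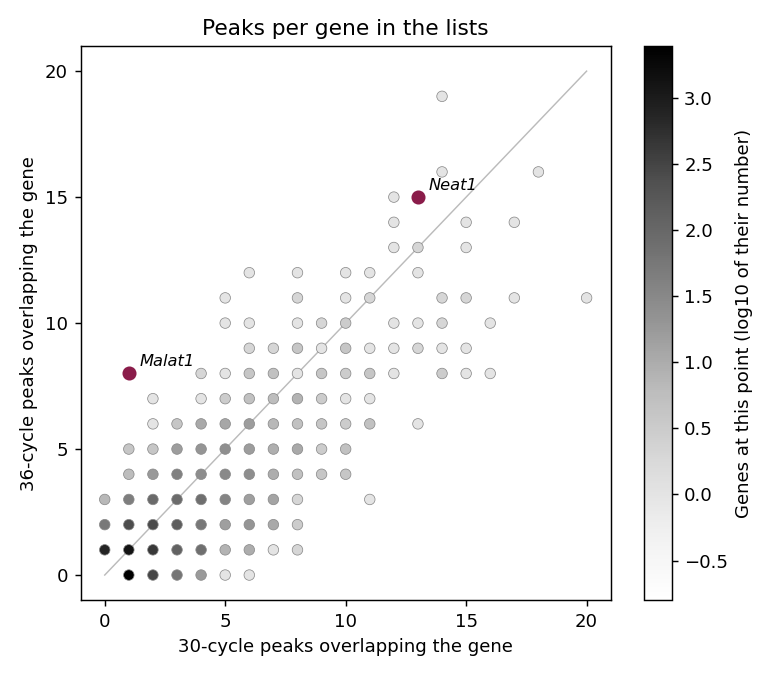
Peaks overlapping each gene in the 30-cycle list (horizontal) and the 36-cycle list (vertical), with points shaded by the number of genes on a log10 scale, a line of equal counts, and 3 genes with over 20 peaks in a list not drawn. Malat1 lies at 1 and 8, and Neat1 at 13 and 15.

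The distribution of peaks along each gene was compared with that of 6334 genes of at least 5 kb with a peak, by Pearson's r over the covered share in 20 bins. Most like Neat1 were Gm44710 (r = 0.59), Marcks (r = 0.58) and Nab2 (r = 0.58). Most like Malat1 were Adamtsl3 (r = 0.57), Rad51b (r = 0.56) and Akap6 (r = 0.56). These 6 are the best of many comparisons and none was close to 1. Bins of 1 gene share a library, and the value is a description.

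Each of the 5 words was found in a smaller share of the locus peaks than of all peaks, by differences within counting error. TGACTCA was found in the central 200 bp of 6 of 51 peaks (11.8%, Wilson interval 5.51 to 23.4), against 17.9% of all combined peaks and 3.14% of 288484 stretches of the same length on chromosome 19 outside peaks. CAGCTG was found in 6 of 51 as well, against 18.0% and 7.68%. TGTGGT or TGCGGT was in 13 (25.5%), against 28.4% and 15.2%. GGAATG was in 3 (5.88%), against 15.6% and 10.7%, and GGGCGG in 2 (3.92%), against 8.55% and 2.31%. The Wilson interval of each of the 5 shares includes the share over all peaks, for GGAATG only narrowly (upper limit 15.9%). The intervals treat the 51 peaks as independent, although joining those up to 500 bp apart leaves 22 stretches. They are therefore no test, and no difference from other peaks is claimed.

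Within the genes the words were few in peak centres. TGACTCA was central in 2 of 16 peaks of Neat1 and in 1 of 9 of Malat1, and CAGCTG in 1 of each. Over its whole length Neat1 holds 4 TGACTCA, and all 4 lie wholly under combined peaks, as do 11 of its 17 CAGCTG. In Malat1 1 of 2 TGACTCA and 1 of 3 CAGCTG do. Combined peaks cover 71.2% of all bases of Neat1 and 33.4% of those of Malat1. With so few sites, these counts show no excess of the words under peaks. The wide peak 4155 to 7265 bp from the Neat1 start alone holds 5 CAGCTG. The central TGACTCA and CAGCTG sites of both genes that are not printed above are given with 22 bases on either side, on the strand of the genes, to show where these words stand near the 3′ end of Neat1 and in the middle of Malat1.
Neat1 3′ end, chr19:5825450-5825500: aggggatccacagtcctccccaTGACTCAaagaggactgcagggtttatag
Neat1 near the 3′ end, chr19:5826356-5826406: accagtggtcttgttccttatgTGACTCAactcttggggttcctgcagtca
Malat1 middle, chr19:5798701-5798750: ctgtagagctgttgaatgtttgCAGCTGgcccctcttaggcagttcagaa
The capitals are the word itself. Both TGACTCA sites of Neat1 lie in combined peaks of both lists, but each site itself is under the 30-cycle peak only. The Malat1 site lies in a peak of the 36-cycle list only.

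The peaks of the locus were close to other peaks in base composition, and those in the genes were lower. The median GC content was 49.5% over the 51 peaks, 45.3% in Neat1, 42.6% in Malat1 and 47.1% over all combined peaks. Within Neat1, bases under peaks had a GC content of 47.1% and the others 47.6%, and within Malat1 these were 42.9% and 42.3%. Peaks with over 50% repeat bases were 5 of 51 (9.80%), against 10.4% of all.

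Of 25 annotated genes in the window 14 are protein-coding, and 5 of these had a combined peak overlapping them, beside 24.7% of all protein-coding genes. A peak within 1 kb of the start was found for 2 of the 14, beside 13.2% of all protein-coding genes and 7.85% of genes of any kind. Slc25a45, a mitochondrial carrier gene, had 1 peak in both lists 37 bp from its start, with a central TGACTCA. Ehbp1l1, an adaptor in vesicle transport, had 1 in both lists 740 bp from its start. Frmd8, which encodes a FERM domain protein, had 1 peak in each list at different places near its 3′ end, and none within 1 kb of its start. Ltbp3, which binds latent TGF-beta, had 1 in the 36-cycle list only. Pola2, a subunit of DNA polymerase alpha, reaches beyond the window and had 4 combined peaks.

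Frmd8os, which is transcribed away from Neat1 from a start close to that of Neat1, was the most covered neighbour apart from small RNA genes inside Neat1. It held 4 peaks after 30 cycles and 6 after 36 cycles, which joined to 4 combined peaks, 3 of them in both lists. Of the small RNA genes annotated inside Neat1, Gm27533 and Gm27505 were wholly covered by combined peaks and Gm28006 to 95.1%. Gm27505 was overlapped in the 36-cycle list only. Gm27694 inside Malat1 and Gm27702 beside the Neat1 3′ end were not overlapped. Nor was Gm37376, a gene of 453 bp on the plus strand within Malat1 that is not annotated as a small RNA.

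Genes of paraspeckle proteins, of nuclear speckles and Malat1 processing, and of other long noncoding RNAs were looked up in 3 lists of 25 genes. These lists were written by hand from general knowledge. A combined peak within 1 kb of the start was found for 12 of 25 paraspeckle genes (48.0%, Wilson interval 30.0 to 66.5). The same was found for 10 of 25 genes of nuclear speckles and Malat1 processing (40%) and 10 of 25 other long noncoding RNA genes (40%). The share over all protein-coding genes was 13.2% and over all noncoding genes 6.66%. The lists were not matched for expression or length, and these shares are a description.

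Among the paraspeckle genes the nearest peaks were those of Hnrnph3 and Hnrnpul1, whose starts lay under a peak, of Sfpq, a core paraspeckle protein needed for Neat1 stability (8 bp), Hnrnpa1 (15 bp), the chromatin remodelling subunit Smarcc1 (61 bp) and the cleavage factor Cpsf7 (118 bp). Among the speckle and processing genes they were those of the splicing regulator Ptbp1 (74 bp), the RNA helicase Ddx39b (95 bp), the spliceosome subunit Sf3b1 (131 bp), Rpp30, a subunit of RNase P (190 bp), Hnrnpc (342 bp) and the RNA methyltransferase Mettl16 (514 bp). Among the other noncoding RNA genes, Tug1 and Dleu2 had a peak over the start, followed by Jpx (39 bp), Gas5 (74 bp), Snhg12 (155 bp) and Pvt1 (155 bp). These distances are to the nearest peak of either list. Hnrnph3, Hnrnpa1, Ptbp1, Hnrnpc, Dleu2, Jpx and Pvt1 had a peak within 1 kb of the start in each list. Sfpq had it in the 36-cycle list only, and the other genes named here in the 30-cycle list only. None of the 75 genes had as many peaks as Neat1. Pvt1, with 13 combined peaks, came nearest, and the protein-coding members of the lists had at most 2.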

How the data were processed

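WFS1 ChIP-seq peak lists of 2 wildtype libraries (30 and 36 cycles) were used. For these lists the authors used NextGenMap on GRCm38, a filter on mapping quality in samtools, and MACS2 on each library alone, keeping 1 read per position. The control used for calling is not given in the sources used here. The deposited values are peak coordinates in bp, with no score, signal or read count. Lists were joined as bedtools merge does, which joins peaks that overlap or touch. Genes came from GENCODE mouse release 21, with 1 start per gene. Sequences were read from GRCm38.p6, and the Malat1 promoter is from RefSeq. Neat1 had no promoter entry there. Coverage is the share of a gene's bases under peaks, and genes under 5 kb were left out of its ranking. With 1 library per condition no test was made. Wilson intervals (95%, scipy) cover only counting error over peaks or, for the gene lists, over the listed genes. The members, gene lists and motifs were chosen with earlier results of these data known. Named are the members and their peaks, genes overlapped or with a start within 1 kb of a peak or nearest to it (in part not reported here), up to 6 genes per list by distance, the 3 most similar genes per member and the 3 noncoding genes with most peaks. The genes next in coverage, in peaks within 100 kb and in 36-cycle excess were named after their values were seen. Other small genes beside or inside the members and Tigd3 were too. Counting, joining and motif search were tested on simulated data. Versions were python 3.11.15, numpy 2.4.6, scipy 1.17.1, matplotlib 3.10.9 and bedtools 2.31.1.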

Additional observations from a re-analysis of the deposited data

How the results depend on the processing

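Of 35 alternatives to 12 results, 22 stayed within the limits set (1.5 times for counts, widths and covered shares, 500 bp for distances, the 95% Wilson interval for other shares) and 13 moved beyond them. With the 30-cycle list alone the locus held 33 peaks and Malat1 1, which covered 3.19% of it. With the 36-cycle list alone Neat1 was covered to 43.8%, and 20% of the 75 listed genes had a peak within 1 kb of the start. Joining peaks up to 500 bp apart left 22 peaks in the locus, 3 over Neat1 and 4 over Malat1. Keeping only peaks at least as wide as the median left 28 in the locus and 1 over Malat1. Requiring at least 50% of each peak to be shared lowered the share found in both lists to 17.6%. Searching whole peaks found TGACTCA in 25.5% and CAGCTG in 37.3% of the 51, where wider peaks offer more bases. The cause of the other changes was not tested. For the 50% rule, the whole-peak search and the share of listed genes with 1 list, the matching share over all peaks or genes is not given here. Whether these values are particular to the locus or the listed genes cannot be told from them. No stricter peak threshold could be run because the lists hold no score. No paired analysis was possible because the lists come from single libraries of 1 precipitation and nothing was tested. The unknown depth limits every comparison between the lists.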
